A study of Mus musculus with 8 samples.

Results

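Transcripts of 9 matricellular genes, *Spp1* (osteopontin), *Tnc*, *Sparc*, *Postn*, *Thbs1*, *Thbs2*, *Fn1*, *Tgfbi* and *Bgn*, were followed in cultured B16F10 cells, a mouse melanoma line. They were picked by symbol from the 55414 genes of the deposited TPM table, in which each of the 9 has 1 row. TPM is the relative abundance of a gene's transcripts after correction for length, scaled to the same total in each library. The 8 libraries came from 4 groups of 2, each kept for 24 h at its oxygen concentration. WT cells and CypD KO cells (ppif knockout, selected as stably transfected clones after CRISPR/Cas9 editing of *Ppif*, the gene of cyclophilin D) were kept at 21% oxygen. Control cells (pcDNA stable cell, carrying the empty vector and selected in G418) and CypD OE cells (PPIF overexpressing stable cell, resistant clones carrying pcDNA-CypD) were kept at 1% oxygen. Oxygen and cell line therefore cannot be told apart in any comparison across the 2 oxygen concentrations, and no source states whether the 2 libraries of a group were separate cultures, so p-values measure the spread between these libraries only.

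The name matricellular is used broadly here, for proteins secreted into the extracellular matrix, many of which act mainly as signals to cells rather than as scaffold. Osteopontin is an acidic phosphoprotein that binds integrins and CD44, and it is known for its association with invasive melanoma. SPARC binds collagen and is abundant in melanoma cells. Thrombospondins 1 and 2 bind CD47 and CD36, and thrombospondin 1 can activate latent TGF-β, fibronectin binds α5β1 and αv integrins, periostin and TGFBI share fasciclin domains, tenascin C modulates adhesion to fibronectin, and biglycan is a small leucine-rich proteoglycan.

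*Ppif*, the edited gene, had 50.68 and 49.99 TPM in the WT pair against 10.4 and 12.1 TPM in the CypD KO pair. Control values were 44.6 and 42.3 TPM and CypD OE values 50.3 and 49.3 TPM, a difference of 0.19 on the log2(TPM + 1) scale that did not pass the threshold (standard error 0.073, limma adjusted p = 0.0794). The mean of the CypD OE values was 98.9% of the WT mean. The study's methods report that western blotting showed CypD overexpression in the stable clones and a lack of CypD in the knockout clones. Those blots were not analysed here. The CypD OE libraries are called CypD OE-labelled below, since at the transcript level every direction drawn from them rests on the label. Markers of melanocytes were abundant, with a summed level of 12810 to 21440 TPM for 10 genes, led by *Tyrp1*. The depth, read from the steps between low values, was such that 1 fragment of a transcript with an effective length of 1 kb was worth 0.0818 to 0.098 TPM.

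Of the 9 genes, *Spp1*, *Sparc*, *Postn*, *Thbs1* and *Fn1* passed the filter for testing, at least 1 TPM in at least 2 libraries, and all 5 passed it on the WT libraries alone. *Thbs2*, *Tgfbi*, *Bgn* and *Tnc* stayed below 1 TPM in every library. *Sparc* was by far the most abundant of the 9 and made up 94.1% and 94.0% of their summed TPM in the WT libraries. That sum was 846.1 and 847.4 TPM in WT, 2802 and 2834 TPM in CypD KO, 1103 and 1136 TPM in Control and 753.3 and 754.7 TPM in the CypD OE-labelled libraries. The CypD KO libraries had the highest TPM for each of the 5 tested genes, while the group with the lowest TPM differed between genes.

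**Figure D1:**
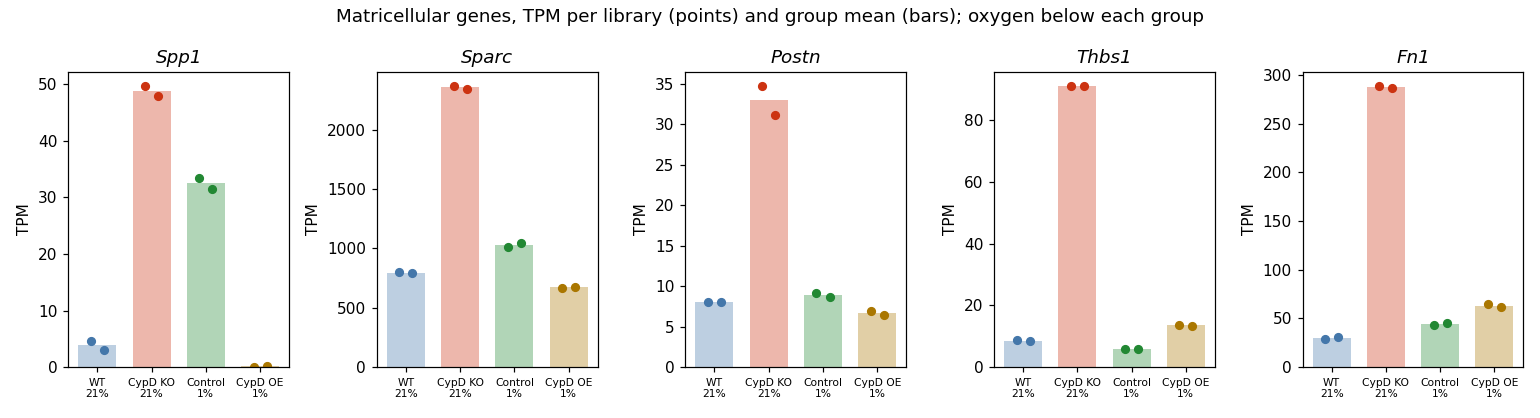
TPM (linear axes from 0) of *Spp1*, *Sparc*, *Postn*, *Thbs1* and *Fn1* in each of the 8 libraries, as points, with the mean of the 2 libraries of a group as a bar and its oxygen concentration below the name. The CypD KO bars are the highest in all 5 panels, and *Spp1* is the gene whose Control bar (32.5 TPM) lies far above both the WT bar (3.82 TPM) and the CypD OE bar (0.135 TPM).

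The first comparison set CypD KO against WT cells, both at 21% oxygen. CypD KO cells were also transfected and selected as clones, and no source states that the WT cells were. Loss of CypD and this selection therefore cannot be told apart here. All 5 tested genes rose in CypD KO cells, by 2.96 to 12.8 times in the ratio of mean TPM. Among all 13526 genes tested, 30.1% were higher and 18.4% lower in this comparison (limma adjusted p under 0.05), and the median log2 difference of all of them was 0.09.

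*Spp1* (ENSMUSG00000029304, chr5:104582165-104589235 of GRCm39, plus strand) had 4.68 and 2.96 TPM in WT and 49.7 and 47.9 TPM in CypD KO. The groups did not overlap, and the WT libraries differed from each other more, for their level, than those of any other tested gene of the 9. Mean TPM was 3.82 ± 1.22 (SD, n = 2) in WT and 48.8 ± 1.29 (SD, n = 2) in CypD KO, and the log2(TPM + 1) difference was 3.39 (standard error 0.17, limma adjusted p = 1.38e-05).

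*Fn1* (ENSMUSG00000026193, chr1:71624673-71692419, minus strand), which encodes the adhesive glycoprotein fibronectin, had 28.4 and 31.1 TPM in WT and 288.6 and 286.5 TPM in CypD KO. Its log2 difference was 3.23 (standard error 0.053, limma adjusted p = 6.54e-07). *Thbs1* (ENSMUSG00000040152, chr2:117941974-117957616, plus strand), encoding thrombospondin 1, had 8.62 and 8.59 TPM in WT and 91.1 and 91.1 TPM in CypD KO, a log2 difference of 3.26 (standard error 0.06, limma adjusted p = 6.54e-07). The ratio of mean TPM was thus close to 10 for these 2 genes, 9.67 for *Fn1* and 10.6 for *Thbs1*, with replicates that differed by far less than the groups.

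*Sparc* (ENSMUSG00000018593, chr11:55285317-55314067, minus strand) started from a high level, 797 and 795 TPM in WT, and reached 2369 and 2344 TPM in CypD KO. Among the 55414 genes of the table it was at rank 179 in both WT libraries and at rank 40 in both CypD KO libraries. Its log2 difference of 1.56 was the smallest of the 5 (standard error 0.024, limma adjusted p = 6.54e-07), but in TPM the gain exceeded the final level of the other 4 together. *Postn* (ENSMUSG00000027750, chr3:54268501-54298471, plus strand), encoding periostin, had 8.04 and 8.07 TPM in WT and 34.8 and 31.2 TPM in CypD KO, a log2 difference of 1.91 (standard error 0.086, limma adjusted p = 9.47e-06).

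Periostin, type I collagen and osteopontin are also products of fibroblasts or macrophages, so markers of those cells were read beside these values. The summed TPM of 9 fibroblast markers other than *Postn* was 11.7 to 14.5 in WT and 42.1 to 45.3 in CypD KO, while *Dcn* was at 0 in all 8 libraries and *Lum* at 0 in 7 of 8. Within that list *Col1a1* rose (log2 difference 3.8), whereas *Col1a2*, its partner chain in type I collagen, fell (log2 difference -1.79), as did *Pdgfrb* (-0.70). The summed TPM of 10 macrophage markers was 3.67 to 4.48 in WT and 24.2 to 25.2 in CypD KO. Nearly all of it was *Cd68*, a lysosomal protein gene, at 21.9 and 23.3 TPM in CypD KO. *Lyz2* also rose (log2 difference 1.03), with 1.85 and 1.8 TPM in CypD KO and at most 0.64 TPM elsewhere. It passed the filter only through the CypD KO libraries, which favoured this direction. *Adgre1* was at 0 in all 8 libraries and *Ptprc* at no more than 0.02 TPM. Endothelial markers summed to 0.66 to 1.87 TPM in WT and 1.67 to 2.21 TPM in CypD KO, with *Cdh5* at 0, and epithelial markers to at most 0.55 TPM in any library. All p-values behind these directions are limma adjusted p under 0.05, and in bulk RNA a change in the number of cells of a type cannot be told apart from a change per cell.

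The 4 other genes were nearly silent in this line. For each, TPM was converted to an approximate number of fragments with its longest coding transcript. *Thbs2* (ENSMUSG00000023885, chr17:14885761-14914528, minus strand), the paralog of *Thbs1*, had 0.69 and 0.61 TPM in CypD KO, against WT values of 0.05 and 0 TPM, 0.03 TPM in each Control library and 0 in the CypD OE-labelled ones. That is approximately 53.3 and 44.5 fragments in CypD KO, and no more than 3.69 in any other library. Corrected for depth, the fragments gave a ratio of 23.2 between CypD KO and WT (exact 95% interval 8.77 to 86.8, counting error only). When the filter was dropped, *Thbs2* had a log2 difference of 0.69 (standard error 0.047, limma adjusted p = 0.000327), in a fit where 16.5% of 24706 genes were higher.

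*Tgfbi* (ENSMUSG00000035493, chr13:56757336-56787375, plus strand) had WT values of 0.18 and 0.12 TPM and CypD KO values of 0.34 and 0.25 TPM, with 0.17 and 0.07 TPM in Control and 0.1 and 0.03 TPM in the CypD OE-labelled libraries. With at most 10 fragments in any library, its difference between CypD KO and WT was not detectable at this depth (log2 difference 0.17 without the filter, limma adjusted p = 0.151). *Bgn* (ENSMUSG00000031375, chrX:72527208-72539541, plus strand) was at 0.19 TPM in CypD KO replicate 1, approximately 5.14 fragments, and at 0 in the other 7 libraries. *Tnc* (ENSMUSG00000028364, chr4:63878014-63965443, minus strand) was at 0.03 TPM in CypD KO replicate 2 and at 0 in the other 7. Transcripts of tenascin C and biglycan were thus at or near 0 in every group, the CypD KO libraries included.

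**Figure D2:**
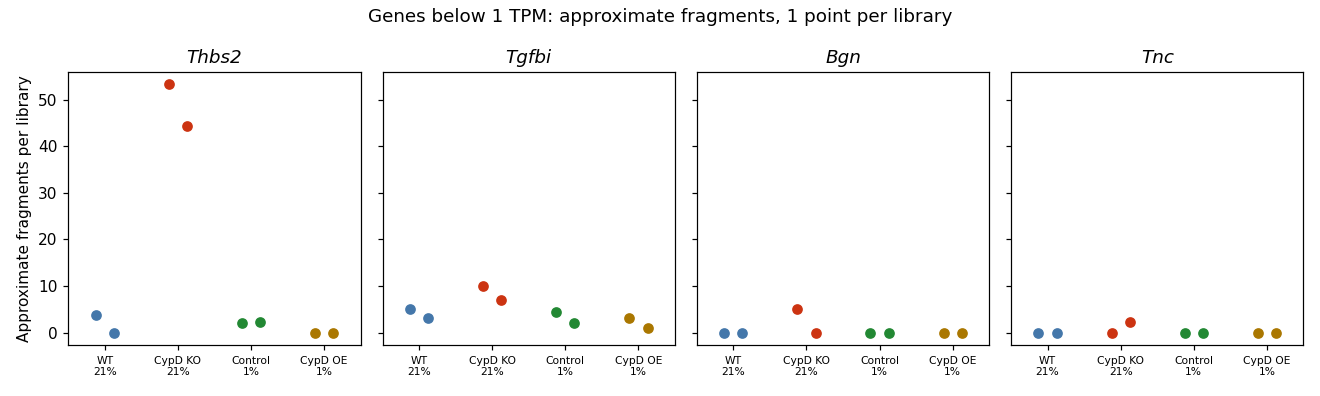
Approximate number of fragments per library (linear axis) for the 4 genes that stayed below 1 TPM, with 1 point per library and the groups along the horizontal axis. *Thbs2* has 53.3 and 44.5 fragments in CypD KO and at most 3.69 elsewhere, *Tgfbi* has at most 10, and *Bgn* and *Tnc* are at 0 in 7 of 8 libraries.

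The RefSeq promoter table holds start sites for 7 of the 9 genes, which gave 10 windows of the 250 bases before a start; *Thbs1* and *Fn1* were not matched. *Postn* and *Thbs2* are shown, with their values known, because both differed between CypD KO and WT and have a RefSeq start no more than 27 bases inside the annotated gene. The starts of *Spp1* and *Sparc* lie at least 812 bases inside theirs, and *Tgfbi*, *Bgn* and *Tnc* had no detectable difference between CypD KO and WT. The windows come from RefSeq's table for GRCm38.p6, and both were placed by an exact match to GRCm39, chr3:54268278-54268500 (plus strand) for *Postn* and chr17:14914529-14914774 (minus strand) for *Thbs2*, and are written 5′ to 3′ along the gene. Capitals mark matches to the E-box CANNTG, or to the short element CAGAC that SMAD proteins bind. A match was accepted in both orientations, so CAGAC also appears as its reverse complement GTCTG.
Postn: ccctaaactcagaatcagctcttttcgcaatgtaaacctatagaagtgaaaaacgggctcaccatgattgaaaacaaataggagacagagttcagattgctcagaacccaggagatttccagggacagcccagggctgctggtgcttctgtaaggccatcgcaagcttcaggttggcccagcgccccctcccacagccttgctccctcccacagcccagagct
Thbs2: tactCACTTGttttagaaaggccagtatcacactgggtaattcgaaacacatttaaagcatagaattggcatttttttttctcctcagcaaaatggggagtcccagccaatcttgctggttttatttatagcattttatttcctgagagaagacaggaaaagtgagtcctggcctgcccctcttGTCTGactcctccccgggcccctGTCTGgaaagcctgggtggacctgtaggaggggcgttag

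The *Thbs2* stretch held 2 matches to CAGAC and 1 to CANNTG, and that of *Postn* held neither. Over the 10 windows, CAGAC was present in 7, from 6 genes, and CANNTG in 7, from 5 genes; among all 32851 promoter windows of the same length, 42.2% and 66.2% held them. The HIF core ACGTG, the AP-1 element TGANTCA and the TEAD element CATTCC were in 0 of the 10 windows, against 16.6%, 6.75% and 12.6% of all windows. The TATA element TATAAA, searched on the gene's strand, was in 4 of the 10, from *Spp1*, *Tnc* (the same match in both of its overlapping windows) and *Postn*, against 7.59% of all windows. The *Postn* match starts at position -26 from the RefSeq start, inside the annotated exon and so beyond the stretch shown. These counts say only which letters lie in these windows. Binding of these factors was not analysed here.

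The second comparison set the CypD OE-labelled cells against Control cells, both at 1% oxygen. It compared cells stably transfected with the vector carrying CypD with cells carrying the empty vector. Resistant clones were selected after transfection, so the insert and differences between selected clones cannot be told apart here. Unlike in CypD KO, the 5 tested genes did not move the same way. *Spp1*, *Sparc* and *Postn* fell, and *Thbs1* and *Fn1* rose, in the CypD OE-labelled libraries. Of all genes tested, 19% were higher and 18.3% lower (limma adjusted p under 0.05).

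*Spp1* had 33.5 and 31.5 TPM in Control and 0.07 and 0.2 TPM in the CypD OE-labelled libraries. The groups were far apart, and the latter values correspond to approximately 1.9 and 5.52 fragments, against 775 and 785 in Control. Corrected for depth, these fragments amounted to 0.394% of those in Control (exact 95% interval 0.158% to 0.813%, counting error only). They were counted with the longest coding transcript. The median coding transcript gave approximately 1.08 and 3.14 fragments against 441 and 447 in Control, for which counting error is larger. The log2(TPM + 1) difference was -4.88 (standard error 0.17, limma adjusted p = 4.67e-06), which understates the fall, and with a pseudocount of 0.1 it was -7.17. Osteopontin transcripts were thus nearly absent from these cells.

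*Sparc* had 1012 and 1045 TPM in Control and 669.7 and 671 TPM in the CypD OE-labelled libraries, a log2 difference of -0.62 (standard error 0.024, limma adjusted p = 7.80e-06). The fall in *Postn* was smaller, from 9.11 and 8.65 TPM to 6.91 and 6.42 TPM, a log2 difference of -0.37 (standard error 0.086, limma adjusted p = 0.0151). It lost the threshold in 4 of the alternatives, with a limma adjusted p of 0.0563 in a fit of these 4 libraries alone, 0.0592 after centring on chromosome medians, 0.0725 when Control replicate 1 was left out and 0.0765 when CypD OE replicate 2 was. *Thbs1* had 5.80 and 5.83 TPM in Control and 13.7 and 13.4 TPM in the CypD OE-labelled libraries, a log2 difference of 1.10 (standard error 0.06, limma adjusted p = 3.40e-05). *Fn1* went from 42.9 and 45.0 TPM to 64.2 and 62.0 TPM, a log2 difference of 0.51 (standard error 0.053, limma adjusted p = 0.000524). For both of these genes the values of the 2 groups did not overlap.

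**Figure D3:**
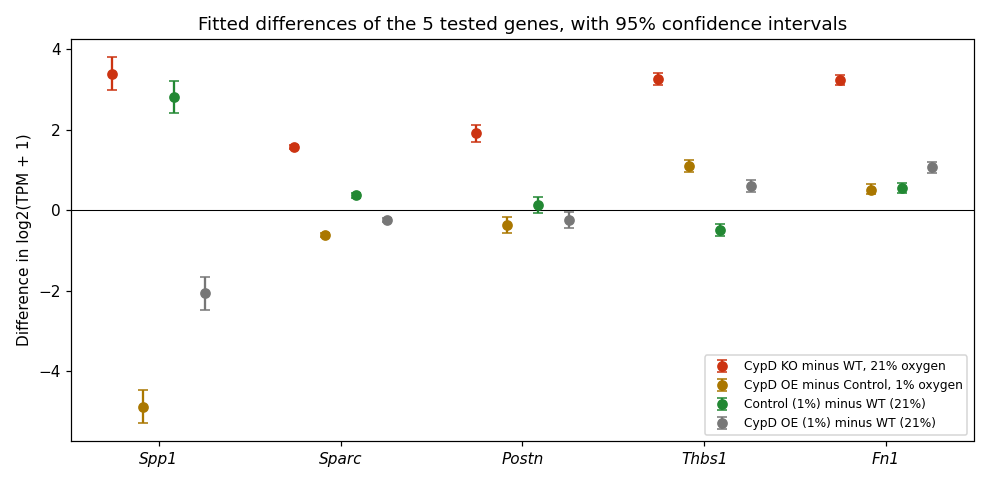
Fitted difference in log2(TPM + 1) for the 5 tested genes in 4 comparisons (colours), with 95% confidence intervals from limma as bars and 0 as the horizontal line. All 5 genes lie above 0 in CypD KO minus WT, whereas in CypD OE minus Control *Spp1* (-4.88), *Sparc* (-0.62) and *Postn* (-0.37) lie below 0 and *Thbs1* (1.10) and *Fn1* (0.51) above it.

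Fibroblast, macrophage and endothelial markers were low here too. The 9 fibroblast markers other than *Postn* summed to 15.5 to 17.1 TPM in Control and 4.78 to 6.11 TPM in the CypD OE-labelled libraries, and *Col1a1* and *Col1a2* both fell (log2 differences -1.44 and -1.54). *Cd68* fell among the macrophage markers (-1.14) and *Vwf* among the endothelial ones (-1.36), lists that summed to 4.68 to 4.92 and 3.29 to 4.21 TPM in Control and to 1.19 to 2 and 0.41 to 0.92 TPM in the CypD OE-labelled libraries. Among the 10 melanocyte markers, 7 were lower and 1 was higher, against 18.3% and 19% of all genes. The largest falls were in *Oca2* (-4.26), *Kit* (-1.41), *Slc45a2* (-1.02) and *Mitf* (-0.93). Between WT and CypD KO, 7 of the 10 were lower and 2 higher, against 18.4% and 30.1% of all genes. Of the 10, *Kit* (-1.98), *Pmel* (-0.64) and *Oca2* (-0.58) fell in CypD KO and *Tyr* (1.97) rose. The part of these markers in the matricellular values was not tested.

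Against the WT cells at 21% oxygen, Control cells at 1% oxygen had more *Spp1* (log2 difference 2.82, standard error 0.17, limma adjusted p = 0.000133), *Fn1* (0.55, limma adjusted p = 0.000802) and *Sparc* (0.37, limma adjusted p = 0.000172), and less *Thbs1* (-0.50, limma adjusted p = 0.00195). *Postn* did not pass the threshold (0.13, 95% interval -0.08 to 0.33, limma adjusted p = 0.337). In this comparison 12.1% of all genes were higher and 12.1% lower. In mean TPM, *Spp1* was 8.51 times its WT level in Control, and the other 4 were between 0.676 and 1.48 times theirs.

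The CypD OE-labelled cells, also at 1% oxygen, differed from WT in another way. *Spp1* was below WT (-2.07, standard error 0.17, limma adjusted p = 0.000402, and -4.08 with a pseudocount of 0.1), as was *Sparc* by a small amount (-0.25, limma adjusted p = 0.000672), while *Fn1* (1.06, limma adjusted p = 9.57e-05) and *Thbs1* (0.60, limma adjusted p = 0.000746) were above it. *Postn* again missed the threshold (-0.24, 95% interval -0.45 to -0.04, limma adjusted p = 0.0802). Among all genes, 14% were higher and 13.7% lower. Both of these comparisons use the same WT libraries as that of CypD KO, so they are not independent of it.

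Ordered by mean TPM, *Spp1* was highest in CypD KO, followed by Control, WT and the CypD OE-labelled libraries, and *Sparc* and *Postn* had the same order. *Thbs1* and *Fn1* had the CypD OE-labelled libraries in second place. Of the 15 steps between neighbours in these orders, those of *Postn* between Control and WT and between WT and CypD OE did not pass the threshold. That of *Spp1* between CypD KO and Control, 48.8 ± 1.29 against 32.5 ± 1.39 TPM (SD, n = 2), passed in the reported fit (log2 difference 0.57, limma adjusted p = 0.0312) and missed it in 8 of the alternatives, with a limma adjusted p of 0.0591 after median-of-ratios scaling and 0.165 with a pseudocount of 0.1. The other 12 steps passed. Between CypD KO and Control, 27.4% of all genes were higher and 16.5% lower. Between CypD KO and the CypD OE-labelled libraries, 29.6% were higher and 19.3% lower, and all 5 genes were higher in CypD KO, by 1.81 (*Sparc*) to 5.46 (*Spp1*) on the log2 scale.

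The genes whose pattern over the 8 libraries lay closest to each of the 5 were found by the root mean square difference between centred log2(TPM + 1) values. *Spp1* had no close match: its nearest were *Pla2g2e* (0.765), *Adm* (0.777) and *Txnip* (0.778), while *Spp1* itself spanned 5.57. *Sparc*, spanning 1.82, was nearest to *Trp53inp2* (0.078), *Ccdc65* (0.0828) and *Slc39a13* (0.101). For *Postn*, spanning 2.27, they were *Ntn4* (0.104), *Baalc* (0.114) and *Ndrg4* (0.118). *Thbs1*, spanning 3.76, was nearest to *Sphk1* (0.129), *Trim30a* (0.244) and *Serpinb8* (0.26), and *Fn1*, spanning 3.30, to *Tmsb4x* (0.111), *Nppb* (0.142) and *Ctso* (0.188). None of the 5 genes was among the 3 nearest of another.

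Receptors of these proteins were compared next, from a list of integrin chains, syndecans, CD44, CD36, CD47 and others, of which 19 of 23 were tested. In CypD KO against WT, 15 were higher and 3 lower, against 30.1% and 18.4% of all genes tested, with a median log2 difference of 0.70 against 0.09. The largest changes were in *Itga5*, the α chain of the main fibronectin receptor (2.97, limma adjusted p = 8.48e-06), the syndecan gene *Sdc4* (1.63), *Itgb3* (1.62) and *Tlr2* (1.54). *Tlr2* and *Itgb8* passed the filter only through the CypD KO libraries, with *Tlr2* at 2.5 and 2.24 TPM there and at most 0.22 TPM elsewhere. The filter itself thus favoured a call of higher in CypD KO for these genes, which are in the count. *Itga5* had 3.86 and 3.41 TPM in WT and 36.5 and 34.2 TPM in CypD KO. Of receptors that bind osteopontin, named here with their values already known, *Itgav* rose from 49.2 and 52.0 TPM to 121 and 121 TPM, *Itgb1* from 321 and 331 TPM to 923 and 910 TPM, and *Cd44* from 211 and 216 TPM to 343 and 342 TPM (log2 differences 1.24, 1.49 and 0.68). *Itga4* and *Itga9*, α chains that also bind osteopontin, were lower (-0.46 and -1.18).

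In the CypD OE-labelled libraries against Control, 3 receptor genes were higher and 7 lower, against 19% and 18.3% of all genes, with a median of -0.07 against 0.00. *Itga8* (1.93) and *Itgb5* (1.25) rose, and *Itga9* (-1.47) and *Sdc3* (-0.96) fell. *Itga5* did not pass the threshold in this comparison (-0.13, limma adjusted p = 0.468), although its ligand gene *Fn1* rose.

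Enzymes that cleave, crosslink or modify matricellular proteins, 23 of 29 tested, included 13 that were higher and 3 lower in CypD KO, against 30.1% and 18.4% of all genes, with a median of 0.55 against 0.09. The largest rises were in the cathepsin gene *Ctsb* (1.87), the transglutaminase gene *Tgm2* (1.79), *Plau*, the gene of urokinase (1.77), and *Bmp1*, a procollagen C-proteinase gene (1.70). *Tgm2* (4.49 and 4.73 TPM in CypD KO, at most 0.74 TPM elsewhere) and *Mmp12* (1.88 and 1.92 TPM, at most 0.07 TPM elsewhere) passed the filter only through CypD KO. The filter favoured a call of higher for them too, and both are in the count. *Ctsb* had 131 and 128 TPM in WT and 481 and 468 TPM in CypD KO. In the CypD OE-labelled libraries, 6 were higher and 6 lower, not far from the 19% and 18.3% of all genes (median 0.03), with the largest changes in the chondroitin sulfotransferase gene *Chst11* (-1.58), the xylosyltransferase gene *Xylt1* (1.04), *Adamts1* (0.72) and *Ctsb* (-0.66).

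Among genes known to regulate the members, 25 of 26 tested, 14 were higher and 5 lower in CypD KO (median 0.42), against 30.1% and 18.4% of all genes. They were led by *Tgfb1* (2.12) and the AP-1 genes *Fosl2* (2.12), *Jun* (1.99) and *Junb* (1.86). In the CypD OE-labelled libraries, 11 were higher and 5 lower (median 0.13), against 19% and 18.3% of all genes. The share that was lower is near that of all genes in both comparisons. The changes were led by *Epas1*, which encodes HIF2α (1.13), *Mitf*, the melanocyte master regulator and also a gene of the melanocyte list (-0.93), *Tgfb2* (0.80) and *Fosl2* (-0.78).

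Most of the other matricellular genes listed here were below 1 TPM in every library. The lists did not cover every such family. All 12 other small leucine-rich proteoglycan genes were below 1 TPM in every library. Of 10 other genes of the osteopontin, tenascin and thrombospondin families only *Thbs3* was tested, and it did not pass the threshold between WT and CypD KO (0.11) or between Control and the CypD OE-labelled libraries (-0.01). It was lower in Control than in WT (-0.58, limma adjusted p = 0.0156) and in the CypD OE-labelled libraries than in WT (-0.59, limma adjusted p = 0.0124), and higher in CypD KO than in Control and in the CypD OE-labelled libraries (0.68 and 0.70, limma adjusted p = 0.00387 and 0.00316). Of 16 genes of the SPARC, fasciclin and fibulin families 6 were tested, with 2 higher and 3 lower in CypD KO (median -0.61) and 0 higher and 4 lower in the CypD OE-labelled libraries (median -1.70). Over all genes the shares were 30.1% and 18.4% in the first comparison, so that 2 of 6 higher is near the background, and 19% and 18.3% in the second. In contrast to *Sparc*, the fibulin genes *Fbln5* (-1.05) and *Fbln1* (-0.85) and the hemicentin gene *Hmcn1* (-0.94) fell in CypD KO, while *Sparcl1*, the paralog of *Sparc*, rose (0.60). *Smoc1* (-1.90), *Fbln1* (-1.75), *Fbln5* (-1.74) and *Sparcl1* (-1.67) fell in the CypD OE-labelled libraries. *Fbln5* had 191 and 207 TPM in Control and 58.4 and 59.3 TPM in the CypD OE-labelled libraries, near the 60.8 and 58.2 TPM of CypD KO.

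**Figure D4:**
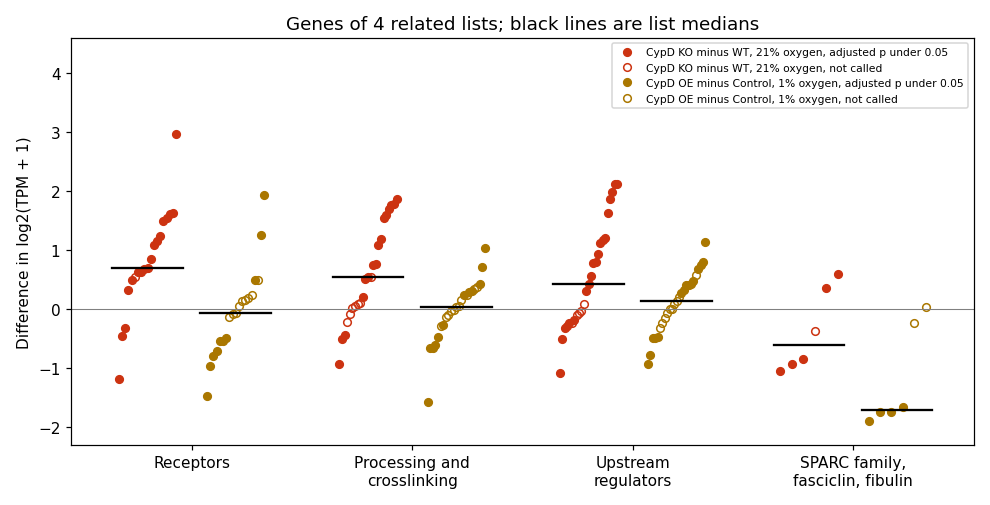
Difference in log2(TPM + 1) for each tested gene of 4 lists (1 point per gene, ordered by value) in CypD KO minus WT and in CypD OE minus Control, filled where the limma adjusted p was under 0.05, with the list median as a black line. The receptor median is 0.70 in CypD KO and -0.07 in CypD OE, and the SPARC, fasciclin and fibulin list has a median below 0 in both.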

How the data were processed

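Total RNA libraries depleted of ribosomal RNA were sequenced in paired-end reads of 150 bases. Per the submitters' processing notes, the authors used Cutadapt 3.4, STAR 2.7.8a, GRCm39 and RSEM 1.3.1. TPM values, scaled within each library and rounded by the authors, were what they deposited and what was used here. 0 columns lacked a sample, and 98.8% of gene identifiers were in GENCODE vM39. The values tested were log2(TPM + 1), for 13526 genes that reached 1 TPM in 2 or more libraries, with limma 3.58.1 in R 4.3.3 (lmFit, eBayes with trend), a mean per group over all 8 libraries, two-sided tests, Benjamini-Hochberg adjustment over the genes tested and a threshold of 0.05. Exact permutation of 4 libraries was not used, since its smallest p is 0.333.

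Fragments were estimated from the spacing of low TPM in genes with 1 transcript of 600 to 3000 bases. The fragment length and scale of each library were those that brought these values closest to integers. At that fit, 82.5% to 85.6% of values of up to 6 fragments fell no more than 0.15 from an integer. Evenly spread values would give 30% without such a fit, so these shares are not like for like. The numbers are approximate. Replicates differed beyond the 95% limit of counting error in 16.1% to 24.1% of the better covered of these single-transcript genes (447 to 510 genes in a group). None was therefore treated as a repeat of another library. Genes named are the 9 members, *Ppif*, up to 4 called genes with the largest change per list, and the 3 nearest patterns per tested member. Outside this rule, further receptors (*Itgav*, *Itgb1*, *Cd44*, *Itga4*, *Itga9*, *Itgb8* in CypD KO, *Itga5* in CypD OE), *Mmp12*, *Thbs3* and defining markers at or near 0 were named after their values were seen. Members and lists were chosen with earlier results of these data known. Alternatives were a pseudocount of 0.1, no filter, a filter of 5 TPM, median-of-ratios scaling, 4-library fits, eBayes without trend, a replicate block, chromosome centring and leaving out each library. The fitting script was tested on simulated data. RSEM divides reads shared between genes, and whether counting used strand is not given in the sources used here; *Tnc*, *Postn*, *Thbs1* and *Fn1* overlap genes on the other strand, and *Spp1* overlaps *Gm42793* on its own strand.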

Additional observations from a re-analysis of the deposited data

How the results depend on the processing

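No member reversed its direction under any alternative where it was tested. The number of the 9 genes called stayed within 1.5 times the reported count in every comparison and setting. The replicate block ended no call of a member; with it, 5 members were called in CypD KO against WT and 5 in CypD OE against Control. Libraries of the same number in different groups had deviations that correlated between -0.0295 and 0.108, so the numbers were not taken as pairs. Calls lost were those of *Postn* in CypD OE against Control and of *Spp1* in CypD KO against Control, as given above. The last had log2 differences of 0.53 to 0.62 when a library of either group was left out. *Ppif* between CypD OE and Control passed the threshold without CypD KO replicate 1 (limma adjusted p = 0.0325) or without CypD KO replicate 2 (0.033), and between Control and WT likewise (0.0388 and 0.0396). Median-of-ratios scaling moved the median log2 difference of all genes between CypD KO and WT from 0.089 to -0.007. With 2 libraries a group, and a few fragments for *Thbs2*, *Tgfbi*, *Bgn*, *Tnc* and for *Spp1* in CypD OE, depth limits the comparison of these values.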
